A study of Mus musculus with 10 samples.

Results

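Kalirin (Kalrn) is a large guanine nucleotide exchange factor of neurons, described here with 7 other genes of the Rac exchange factor pathway: its paralogue Trio, the exchange factors Tiam1 and Arhgef7, the GTPases Rac1 and Cdc42, and the kinases Pak1 and Pak3. These 8 of the 32531 genes in the count tables were listed by symbol, and all 8 were found and passed the filter on low counts. They were chosen by measured values in part: Kalrn was selected on its levels, since its cocaine and saline libraries did not overlap once the libraries numbered replicate 2 were set aside. The cocaine against saline values of the 8 genes are therefore given as a description, with no test.

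All libraries came from whole striatum of the mouse line Chat-TRAP DW167. Lines of this kind express the ribosomal protein Rpl10a with an EGFP tag under control of the gene for choline acetyltransferase (Chat), so that polysomes of cholinergic neurons can be pulled down with an antibody to EGFP. Ribosome-bound RNA was immunopurified from mice after saline self-administration, from mice after cocaine self-administration and from yoked controls, with 3 libraries per group. All groups, controls included, carried the transgene. A further library of total RNA from saline animals (the input) had no replicate. The labels give no dose, duration, age or sex, do not say what the yoked animals received, and do not say whether a library held 1 animal or a pool, so the p values measure the spread between these libraries, which may be technical.

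Gene counts ranged from 24526765 to 75220922 over the 9 immunopurified libraries, the deepest being cocaine library 2, and were 40912230 in the input. Levels are given as CPM, the count of a gene scaled to a common total of gene counts per library, and the SD is over 3 libraries. The lowest count of any of the 8 genes in any library was 1299 (Tiam1 in yoked library 3, 47.3 CPM), with an exact 95% Poisson interval of 44.7 to 49.9 CPM. Such intervals cover counting error only, because the reads carry no molecular identifiers. By their labels the saline libraries ran on lane 3, both other immunopurified groups on lane 4 and the input on lane 5. Wherever saline or input libraries are compared with the rest, lane and treatment cannot be told apart. The 9 cholinergic markers were all higher than the input in each saline library, and their summed level was 4119 to 5410 CPM over the immunopurified libraries against 110 CPM in the input. Summed spiny projection neuron markers measured 1054 to 1963 CPM against 8054 in the input, oligodendrocyte markers 224 to 533 against 2711, astrocyte markers 233 to 412 against 2293, microglial markers 3.79 to 13.9 against 49.3, endothelial markers 0.703 to 5.01 against 11.6, markers of other striatal interneurons 23.9 to 48.2 against 178 and cortical glutamatergic markers 7.21 to 36.5 against 402. Single genes did not all follow these sums. Th, a marker of other striatal interneurons, measured 3.62 CPM in the input and was higher in each of the 9 immunopurified libraries, with a mean of 7.03 CPM after saline. Nos1, of the same list, measured 17.7 CPM in yoked library 3 against 12.3 in the input, and the microglial marker Aif1 5.55 CPM in yoked library 1 against 4.84. No marker of these lists was at 0 in all immunopurified libraries.

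Small GTPases such as Rac1 and Cdc42 act as switches: exchange factors load them with GTP, activating proteins return them to the GDP form, and the loaded GTPase binds effectors such as the Pak kinases, which act on the actin cytoskeleton. Kalirin and Trio carry an exchange domain for Rac and a second exchange domain for another GTPase. Kalirin is best known for shaping the dendritic spines of forebrain projection neurons. The cholinergic interneurons of the striatum fire tonically and bear few spines. Kalrn lies on chromosome 16 (33969073 to 34573277, mm10) and spans 604 kb. Tiam1 lies on the same chromosome (89787111 to 90145600), Trio on chromosome 15 (27730649 to 28025848), Arhgef7 on 8 (11728001 to 11835219), Rac1 on 5 (143505481 to 143528031), Cdc42 on 4 (137319696 to 137357759), Pak1 on 7 (97788541 to 97912381) and Pak3 on X (143518366 to 143797796). The counts are per gene, so isoforms of kalirin with and without the second exchange domain were not separated.

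Kalrn was the most variable of the 8 genes. It measured 565, 1024 and 540 CPM in saline libraries 1 to 3, 1433, 770 and 1242 CPM in the cocaine libraries, and 567, 1188 and 928 CPM in the yoked libraries. Saline library 2 lay above cocaine library 2, and the other cocaine libraries were the highest of all 9. The group means were 1148 ± 341 CPM after cocaine, 894 ± 312 CPM in yoked animals and 710 ± 273 CPM after saline (SD, n = 3), and neighbours in this order differed by less than 1 SD. The coefficient of variation over the 9 libraries was 35.9% for Kalrn and between 11.6% and 19.6% for the other 7 genes. Its SD within groups was 0.51 on the log2(CPM + 1) scale, above that of 91.2% of the 10247 genes of at least 5 CPM, whose median was 0.28.

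**Figure D1:**
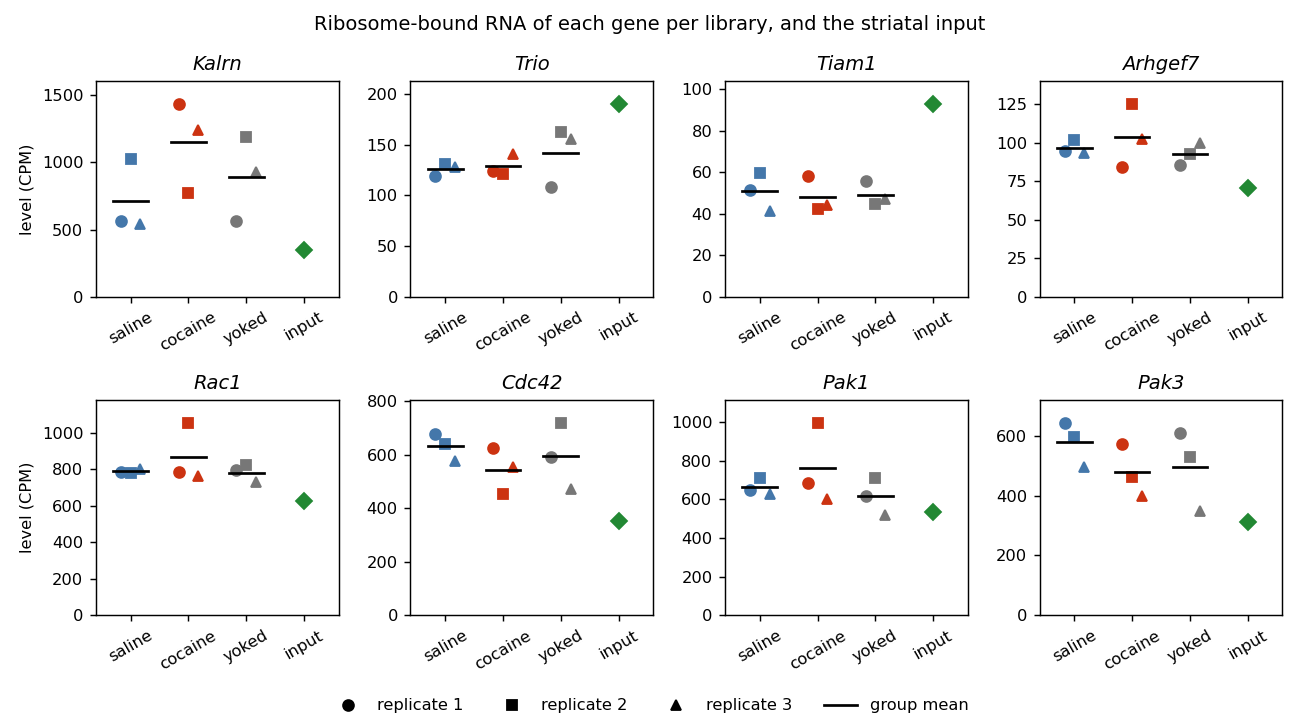
Level in CPM (vertical axes from 0) of each gene in the saline, cocaine and yoked immunopurified libraries and in the input; symbols give the replicate number and bars the group mean. Kalrn spans 540 to 1433 CPM with saline library 2 inside the cocaine range, and cocaine library 2 stands above the other libraries for Arhgef7, Rac1 and Pak1.

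In cocaine against saline self-administration, the comparison on which Kalrn was chosen, its log2 fold change was 0.71 ± 0.29 (SE) with all libraries, a 1.63-fold difference. The labels do not say whether replicate numbers pair the cocaine libraries with those of another group. Ratios within a number therefore only set libraries side by side. Within numbers 1, 2 and 3 the log2 ratio of cocaine to saline CPM was 1.34, −0.41 and 1.20, so number 2 ran the other way. Without the 3 libraries numbered replicate 2 the means were 1337 CPM after cocaine and 553 CPM after saline, with a log2 fold change of 1.26, or 2.40-fold. With all libraries 0 of the 8 genes had groups that did not overlap, where 10.3% of the 14989 genes tested did. Without the replicate 2 libraries 2 did, Kalrn with higher and Rac1 with lower cocaine levels, where 16.7% of all genes were wholly higher and 13.6% wholly lower. No gene was called in this comparison in edgeR (0%). Leaving out 1 library at a time gave log2 values for Kalrn from 0.52 to 1.05, the lowest without cocaine library 1 and the highest without saline library 2, and limma voom with library quality weights gave 1.10.

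The other 7 genes differed less in this comparison. Trio, the paralogue of kalirin, measured 119, 131 and 127 CPM after saline and 124, 121 and 141 CPM after cocaine (log2 fold change 0.049 ± 0.17, SE). Tiam1, an exchange factor selective for Rac, measured 51.2, 59.5 and 41.4 CPM after saline and 58.3, 42.4 and 44.1 CPM after cocaine (−0.054 ± 0.20). The libraries of both groups were interleaved for both genes. Arhgef7, also called beta-Pix, which joins Pak kinases to Git scaffolds, measured 94.6, 102 and 93.4 CPM after saline and 84.1, 125 and 103 CPM after cocaine (0.13 ± 0.18).

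Rac1 was the steadiest gene in saline libraries, at 787, 782 and 801 CPM, and measured 783, 1056 and 766 CPM after cocaine (log2 fold change 0.16 ± 0.17, SE). Without the replicate 2 libraries the cocaine values lay just below the saline values (−0.050), but the 95% counting intervals of cocaine library 1 (772 to 794 CPM) and saline library 1 (777 to 798 CPM) overlapped. Cdc42, the second GTPase, measured 678, 641 and 577 CPM after saline and 624, 453 and 553 CPM after cocaine (−0.20 ± 0.17). Pak1 measured 649, 710 and 626 CPM after saline and 683, 997 and 601 CPM after cocaine (0.23 ± 0.20), and Pak3, its X-linked relative, 644, 595 and 494 CPM after saline and 573, 461 and 398 CPM after cocaine (−0.26 ± 0.21). The positive values of Arhgef7, Rac1 and Pak1 rested on cocaine library 2, without which they were −0.047, −0.029 and −0.040. Within numbers 1, 2 and 3 Pak3 had log2 ratios of −0.17, −0.37 and −0.31 and Cdc42 of −0.12, −0.50 and −0.062, so each cocaine library was lower than the saline library of the same number. Cdc42 and Pak3 were negative in each of the 14 alternative settings, from −0.31 to −0.10 and from −0.39 to −0.12. These settings reuse the same libraries, and the share of all genes with such agreement is not given here. Against yoked animals, which share the lane of the cocaine libraries, the fitted values were −0.093 for Cdc42 and −0.019 for Pak3. Yoked against saline gave −0.11 and −0.24. The part of lane in the lower cocaine values of both genes was not tested. Over the 8 genes 5 values were positive and 3 negative, where 50.6% of all genes were positive. The median was 0.089 beside 0.0049 for all genes, and the median size of the difference was 0.18 beside 0.25. Without the replicate 2 libraries 3 were positive (Kalrn, Trio and Tiam1, the last at 0.13) and 5 negative.

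**Figure D2:**
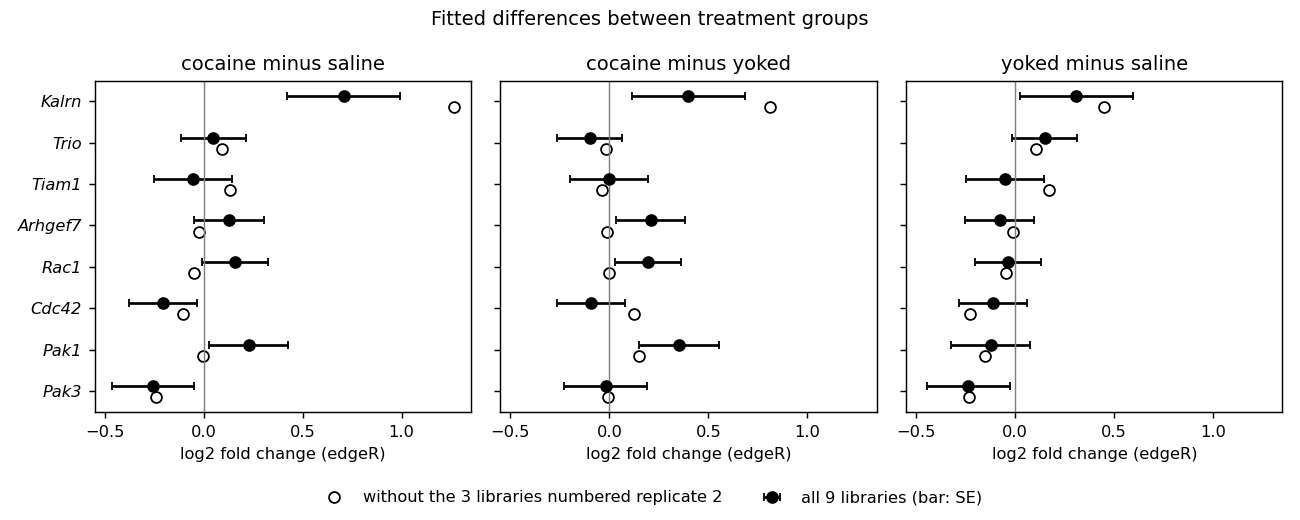
Fitted log2 fold change (horizontal axes) of each gene in the 3 comparisons of treatment groups; filled points use all 9 immunopurified libraries with their SE, open points leave out the 3 libraries numbered replicate 2. Kalrn is positive in each panel and moves from 0.71 to 1.26 for cocaine minus saline, while the other 7 genes reach at most 0.35 (Pak1, cocaine minus yoked) with all libraries.

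Cocaine self-administration against yoked controls, which share lane 4, compared the same cocaine libraries with other animals, so it is not independent of the first comparison. Kalrn had a log2 fold change of 0.40 (95% interval −0.21 to 1.01, Benjamini-Hochberg adjusted p of 0.9997 by edgeR), 1.32-fold, and the groups overlapped. In limma voom the value was 0.72. Within numbers 1, 2 and 3 its log2 ratio of cocaine to yoked CPM was 1.34, −0.63 and 0.42, and without the replicate 2 libraries the fitted value was 0.81. Pak1 had the smallest unadjusted p of the 8 (0.101 in edgeR), with yoked levels of 616, 712 and 520 CPM, a log2 fold change of 0.35 (−0.077 to 0.78) and an adjusted p of 0.9997. Its cocaine values exceeded the yoked value of the same number for each of the 3 numbers, by 0.15, 0.48 and 0.21 on the log2 scale. How many of all genes had such agreement is not given here. The intervals of the other 6 genes all held 0, from 0.21 (−0.17 to 0.58) for Arhgef7 to −0.10 (−0.45 to 0.25) for Trio.

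None of the 8 genes was called in this comparison, and neither was any of the 14989 tested (0%), of which 2.61% had an unadjusted p under 0.05 in edgeR against 0 of the 8. DESeq2 and limma voom with library quality weights also called 0. None of the 8 genes had groups that did not overlap (6.78% of all genes). Without the replicate 2 libraries 1 did, Kalrn, beside 14.9% of all genes that were wholly higher in cocaine and 10.1% wholly lower. The median log2 fold change of the 8 was 0.097 beside 0.0011 for all genes.

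Yoked controls against saline self-administration share their libraries with the other comparisons and differ in lane. The intervals and p values given for this comparison are unpaired. Kalrn had a log2 fold change of 0.31 (95% interval −0.30 to 0.92, Benjamini-Hochberg adjusted p of 0.9993 by edgeR). Yoked library 1, at 567 CPM, lay just above saline library 1, at 565 CPM, and the log2 ratio within numbers 1, 2 and 3 was 0.0046, 0.21 and 0.78. Pak3 measured 610, 530 and 348 CPM in yoked animals, with a log2 fold change of −0.24 (−0.68 to 0.21, adjusted p = 0.9993 in edgeR). For each of the 3 numbers Pak3 was lower in the yoked than in the saline library, and Kalrn was higher. The share of all genes with such agreement is not given here. Trio measured 108, 162 and 155 CPM (0.15, −0.21 to 0.50), Cdc42 591, 720 and 471 CPM (−0.11, −0.48 to 0.25) and Rac1 793, 821 and 728 CPM (−0.036, −0.40 to 0.32). Tiam1 measured 55.7, 44.7 and 47.3 CPM and Arhgef7 85.6, 92.5 and 99.4 CPM in the yoked libraries, with log2 fold changes of −0.052 (−0.47 to 0.37) and −0.079 (−0.46 to 0.30).

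None of the 8 genes was called here, nor was any of the 14989 tested (0%), and 0 of the 8 had an unadjusted p under 0.05 in edgeR against 2.18% of all genes. DESeq2 and limma voom also called 0. Groups did not overlap for 0 of the 8 genes and for 7.05% of all genes. Without the replicate 2 libraries Kalrn lay higher in yoked animals, by the small margin of library 1, and Pak1 lower, beside 14% and 15% of all genes. The median of the 8 was −0.066 beside −0.014 for all genes.

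The comparison with the input asked whether the 8 transcripts were richer in cholinergic ribosome RNA than in the striatum as a whole. Differences in cell number and in RNA per cell cannot be told apart in such bulk RNA. The input is total RNA, so the ratios also mix cell type with ribosome binding. Reads that met no gene numbered 34.0 per 100 gene counts in the input and 17.0 to 28.6 in the immunopurified libraries. Kalrn was above its input level of 351 CPM in each of the 9 immunopurified libraries, with a log2 ratio of 0.95 ± 0.52 in saline libraries (SD, n = 3), 1.66 ± 0.47 in cocaine libraries and 1.29 ± 0.54 in yoked libraries. These are 1.94, 3.17 and 2.44 times the input. The exchange factors divided: Trio, with 190 CPM in the input, had a log2 ratio of −0.59 ± 0.070 in saline libraries, and Tiam1, with 92.8 CPM, −0.89 ± 0.26, and both were below the input in each of the 9 libraries. Arhgef7 lay above its input level of 70.8 CPM, at 0.45 ± 0.066.

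Both GTPases and both kinases lay above the input in saline libraries. Cdc42 and Pak3 had log2 ratios of 0.83 ± 0.12 and 0.88 ± 0.20 (SD, n = 3), from input levels of 354 and 311 CPM. Rac1 had 0.34 ± 0.018 from 625 CPM and Pak1 0.31 ± 0.093 from 533 CPM. Pak1 was at the input level in yoked library 3 (−0.035), and the other 3 genes exceeded the input in each of the 9 libraries. In all, 6 of the 8 genes were above the input in each saline library and 2 below it, where 35.8% of the 15888 genes measured were above and 44.9% below. Over all 9 libraries 5 were above and 2 below, beside 27.9% and 36.2% of genes, and the median log2 ratio was 0.39 beside −0.20 over all genes. None of the 8 was at least 2-fold higher in each saline library, as 12.2% of genes were, or at least 2-fold lower, as 23.1% were. The input has no replicate, so these ratios carry no test.

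**Figure D3:**
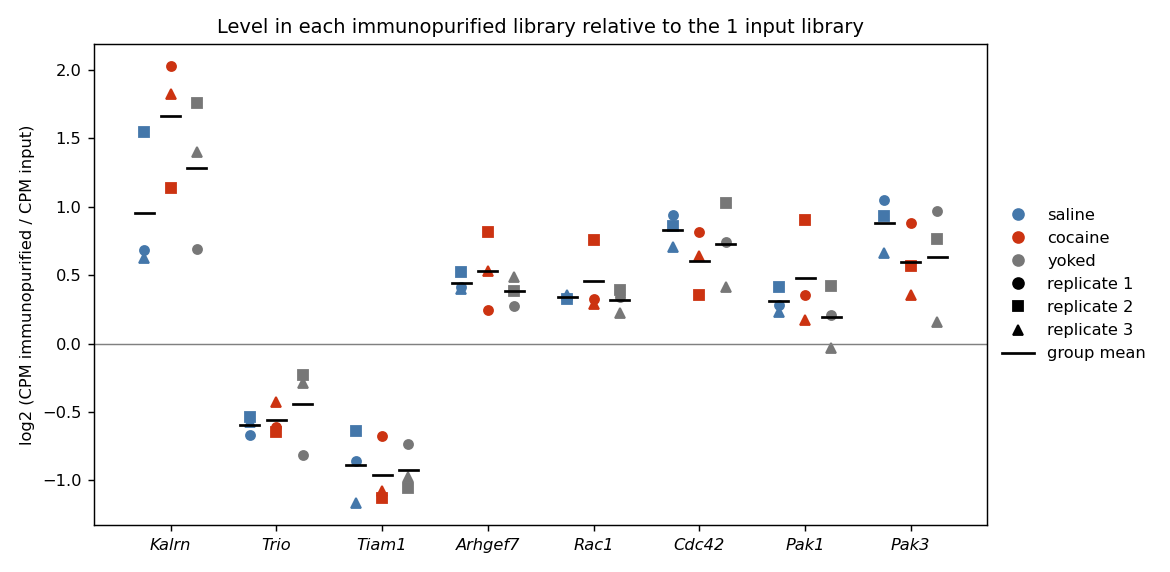
Log2 ratio of the level in each immunopurified library to the 1 input library (vertical axis) for each gene; colours give the group, symbols the replicate number and bars the group mean. Trio and Tiam1 lie below 0 in each library, Kalrn lies between 0.62 and 2.03, and Pak1 reaches −0.035 in yoked library 3.

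How the 8 genes varied together over the 9 immunopurified libraries depended on cocaine library 2 and yoked library 3 for the GTPases and kinases. Of 28 pairs, 0 had a Benjamini-Hochberg adjusted p under 0.05 in two-sided exact permutation tests of Pearson's r or Spearman's coefficient on log2(CPM + 1), and 2 had an unadjusted p under 0.05 for r. The permutations treat the 9 libraries as exchangeable, although they differ in group, lane and replicate number. These p values hold only so far as such differences play no part in the levels. Rac1 and Pak1, a GTPase and a kinase that it activates, had r = 0.93 (exact permutation p = 0.00248, adjusted 0.0694) and a Spearman coefficient of 0.68 (p = 0.0503, adjusted 0.600). Without the 2 libraries farthest from the Rac1 median, cocaine 2 and yoked 3, r was 0.43, and it was 0.80 without cocaine library 2 alone. Cdc42 and Pak3 had r = 0.73 (exact permutation p = 0.0256, adjusted 0.358) and a Spearman coefficient of 0.73 (p = 0.0311, adjusted 0.600), and 0.57 without the same 2 libraries. Kalrn and Trio had r = 0.58 (exact permutation p = 0.110, adjusted 0.390) and a Spearman coefficient of 0.50 (p = 0.178, adjusted 0.678), and 0.56 without saline libraries 1 and 3. Taken as deviations from the group means, which removes lane along with group, r was 0.93, 0.69 and 0.71 for these 3 pairs. The 6 pairs among Rac1, Cdc42, Pak1 and Pak3 had r from −0.37 (Rac1 and Cdc42) to 0.93 with all libraries, and from 0.70 (Rac1 and Pak3) to 0.92 (Cdc42 and Pak1) without cocaine library 2, where Rac1 and Cdc42 had 0.85. Without the 3 replicate 2 libraries they were 0.80 to 0.92. Without both cocaine library 2 and yoked library 3 they fell to between 0.28 (Rac1 and Pak3) and 0.80 (Cdc42 and Pak1). These values were looked at after the pairs were computed and carry no test.

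Cocaine library 2 and yoked library 3 set much of this spread. Cocaine library 2 was the highest of the 9 for Arhgef7, Rac1 and Pak1, by 0.36, 0.38 and 0.57 above the gene's mean on the log2(CPM + 1) scale, and the lowest for Cdc42 (−0.37). Yoked library 3 was the lowest for Rac1, Pak1 and Pak3 (−0.15, −0.36 and −0.54). Kalrn was extreme in neither, at −0.17 and 0.10.

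**Figure D4:**
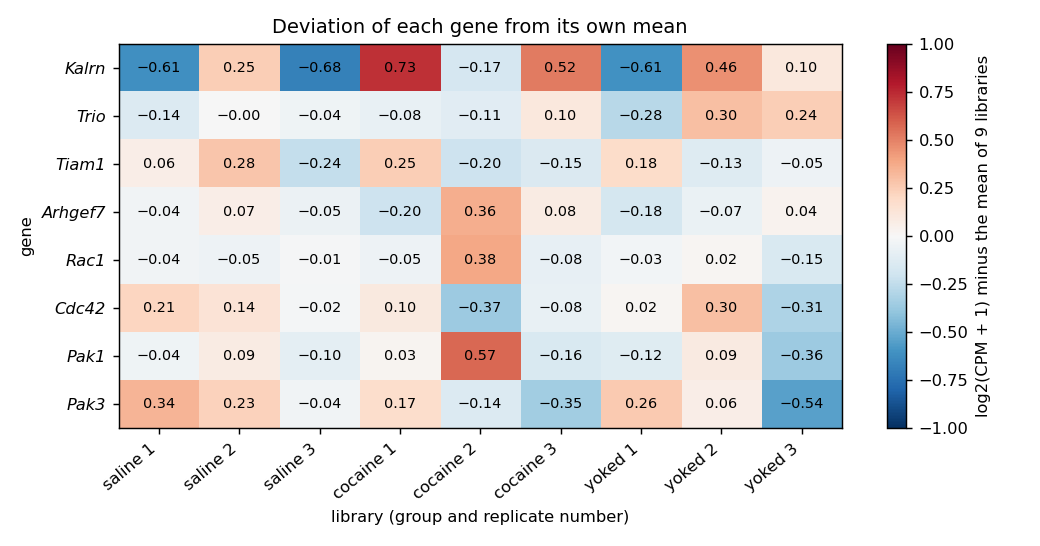
Each gene's log2(CPM + 1) in each immunopurified library minus its mean over the 9 libraries (colour and printed value, rows are genes and columns libraries). Kalrn ranges from −0.68 in saline library 3 to 0.73 in cocaine library 1, and cocaine library 2 reaches 0.57 for Pak1 and −0.37 for Cdc42.

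The genes whose pattern over the 9 libraries was most like that of Kalrn, by Pearson's r of log2(CPM + 1) among 10247 genes of at least 5 CPM, were Reep3, Zfp414, Exoc1, Pias4 and the carboxypeptidase M gene Cpm. Their r was 0.92, 0.91, 0.90, 0.89 and 0.85 (Spearman coefficients 0.78, 0.85, 0.88, 0.90 and 0.80). They are a description of these libraries, picked as the highest of many. Reep3, an endoplasmic reticulum membrane protein, measured 4.96, 8.88 and 5.46 CPM after saline, 10.6, 4.79 and 9.36 after cocaine and 4.86, 11.3 and 8.01 in yoked animals, so its saline library 2 was likewise above its cocaine library 2. Exoc1, an exocyst subunit, spanned 20.5 to 34.5 CPM and Pias4, a SUMO ligase, 10.5 to 19.6 CPM. Among the other 7 genes of the pathway Trio came nearest (r = 0.58, above 96.8% of genes) and Pak3 was farthest (−0.27).

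Beside the Kalrn values, summed spiny projection neuron markers measured 1963, 1114 and 1054 CPM in saline libraries 1 to 3, 1841, 1135 and 1493 CPM in the cocaine libraries and 1600, 1317 and 1602 CPM in the yoked libraries. The libraries had the same order for this sum and for Kalrn in the cocaine group, and different orders in the saline and yoked groups. Summed markers of other striatal interneurons measured 23.9 to 26.3 CPM in the saline libraries, 29.7 to 48.2 CPM in the cocaine libraries and 28.8 to 46.7 CPM in the yoked libraries, so all saline libraries were lower in the sum. Within this list, the mean of Sst was lower in yoked animals than after saline (10.3 against 11.2 CPM). That of Calb2 was lower after cocaine (0.023 against 0.25 CPM). The other cocaine and yoked means of these genes lay above the saline means. Reads that met no gene numbered 17.0 to 18.5 per 100 gene counts in the saline libraries, 19.0 to 27.2 in the cocaine libraries and 18.8 to 28.6 in the yoked libraries, and again all saline libraries were lower. Reads aligned to several places were 36.4% of all reads in saline library 2 and 36.3% in yoked library 2, each the highest of its group for Kalrn. The other immunopurified libraries had 46.5% to 57.1%, with 56.2% in cocaine library 2, the lowest of its group for Kalrn. Saline library 2 and yoked library 2 also had the fewest genes with a count, 16530 and 16724. Mean correlation with libraries of other groups was at most 0.955 for the replicate 2 libraries and at least 0.971 for the rest. The part of marker RNA or of these library differences in the Kalrn values was not tested.

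The other genes of the pathway were taken from 4 lists of 134 genes, of which 130 passed the filter on low counts. None was called in any of the 3 comparisons. As a baseline for the directions below, 50.6% of all genes tested were higher in cocaine against saline. The share was 50.2% in cocaine against yoked and 47.9% in yoked against saline. Groups did not overlap for 13 of the 130 (10%) where cocaine was set against saline, for 7 (5.38%) where it was set against yoked, and for 8 (6.15%) between yoked and saline, beside 10.3%, 6.78% and 7.05% of all genes. An unadjusted p under 0.05 in edgeR was found for 4 in cocaine against yoked (3.08%) and 4 in yoked against saline (3.08%), beside 2.61% and 2.18%.

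The list of other Rac and Cdc42 exchange factors also held partners such as Elmo1 and Elmo2. Of its 38 genes tested, 27 had higher and 11 lower values after cocaine than after saline (median log2 fold change 0.12). The counts were 24 and 14 against yoked (0.097), and 15 and 23 in yoked against saline (−0.067). The last median was 0.015 without yoked library 2, and that against yoked was 0.0091 in limma voom. Fgd1, an exchange factor for Cdc42, was the only one of them of at least 5 CPM whose groups did not overlap in cocaine against saline, at 13.0 ± 5.59 against 6.75 ± 0.21 CPM (SD, n = 3). Its log2 fold change of 0.98 fell to 0.50 without the replicate 2 libraries. Arhgef6, the alpha-Pix relative of Arhgef7, measured 37.2 ± 14.1 CPM after cocaine and 23.2 ± 3.01 in yoked animals, a log2 fold change of 0.74 (0.16 to 1.31 at 95%) with an adjusted p of 0.9997 in edgeR, and the scaffold exchange factor Itsn2 67.5 ± 16.2 and 49.0 ± 12.4 CPM (0.50, 0.0055 to 0.99). These fell to 0.42 and 0.091 without the replicate 2 libraries. In yoked against saline, Prex2 measured 20.4 ± 2.82 and 11.1 ± 4.35 CPM (0.85, 0.25 to 1.45, adjusted p = 0.9993 in edgeR) and Rasgrf2 16.7 ± 4.52 and 9.25 ± 2.65 CPM (0.82, 0.15 to 1.49), and the groups of both did not overlap. Their values were 0.61 and 0.48 without the replicate 2 libraries.

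The effector list also held scaffolds and genes further downstream, such as Git2, Ssh2 and Cfl1. Among its 48 genes, 22 were higher and 26 lower in each of the 3 comparisons (medians −0.053, −0.022 and −0.045, in the order above). Pak2, the third kinase of the Pak1 and Pak3 subgroup, measured 48.1 ± 6.22 CPM (SD, n = 3) after cocaine against 71.3 ± 20.6 after saline, and Ssh2, a phosphatase that reactivates cofilin, 56.8 ± 7.90 and 78.2 ± 12.7 CPM. Both had groups that did not overlap, and their log2 fold changes of −0.55 and −0.45 were −0.27 and −0.23 without the replicate 2 libraries. Git2, a scaffold that binds the Pix exchange factors, measured 26.2 ± 12.5 CPM after saline, 21.5 ± 3.89 after cocaine and 13.3 ± 4.001 in yoked animals. Its log2 fold change was −0.98 in yoked against saline (95% interval −1.70 to −0.26, adjusted p = 0.9993 in edgeR) and −0.27 without the replicate 2 libraries, and it was 0.73 in cocaine against yoked (0.011 to 1.44) and 0.31 without those libraries. Limk1, the kinase that phosphorylates cofilin downstream of Pak, had a log2 fold change of −0.39 in cocaine against yoked (−0.83 to 0.047; −0.12 without the replicate 2 libraries), and Ssh2, at 63.2 ± 6.40 CPM in yoked animals, −0.33 in yoked against saline (−0.69 to 0.037).

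Of 23 GTPase-activating proteins and GDIs, 13 were higher and 10 lower in cocaine against saline (median 0.0093), 17 and 6 in cocaine against yoked (0.15) and 6 and 17 in yoked against saline (−0.073). The last 2 comparisons share the yoked libraries, and their medians were 0.059 without cocaine library 2 and 0.024 without saline library 2. Srgap2 measured 107 ± 10.4 CPM after cocaine and 139 ± 30.7 CPM in saline animals without overlap, and its log2 fold change of −0.36 was −0.12 without the replicate 2 libraries. Arhgap24, a GTPase-activating protein for Rac, measured 25.4 ± 4.99 CPM after cocaine and 19.0 ± 2.23 in yoked animals (0.46, −0.042 to 0.97), and Arhgdia, a GDI that holds small GTPases in the cytosol, 774 ± 113 and 643 ± 92.7 CPM (0.31, −0.059 to 0.68). Both were smaller without the replicate 2 libraries, at 0.27 and 0.13. In yoked against saline the smallest p in this list belonged to Arhgap22 (1.11 ± 0.87 and 2.76 ± 1.35 CPM) and Arhgdig (66.9 ± 7.68 and 76.2 ± 23.3 CPM), whose intervals held 0.

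Among the 21 upstream receptors and synaptic partners, with medians of 0.038, −0.055 and 0.078 in the same order, the scaffold gene Dlg4 measured 399 ± 33.8 CPM after cocaine against 339 ± 22.1 after saline without overlap (log2 fold change 0.25, and 0.21 without the replicate 2 libraries). Ephb2, an ephrin receptor, measured 5.26 ± 2.36 CPM after cocaine and 10.002 ± 4.17 in yoked animals (−0.90, −1.78 to −0.011, adjusted p = 0.9997 in edgeR), and was −0.31 without the replicate 2 libraries. The neuregulin receptor gene Erbb4 measured 4.43 ± 0.27, 6.79 ± 2.35 and 4.37 ± 1.15 CPM after cocaine, in yoked animals and after saline. Dcc, the netrin receptor, measured 52.5 ± 5.48 CPM in yoked animals and 64.3 ± 5.602 after saline without overlap (−0.31, −0.65 to 0.031).

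**Figure D5:**
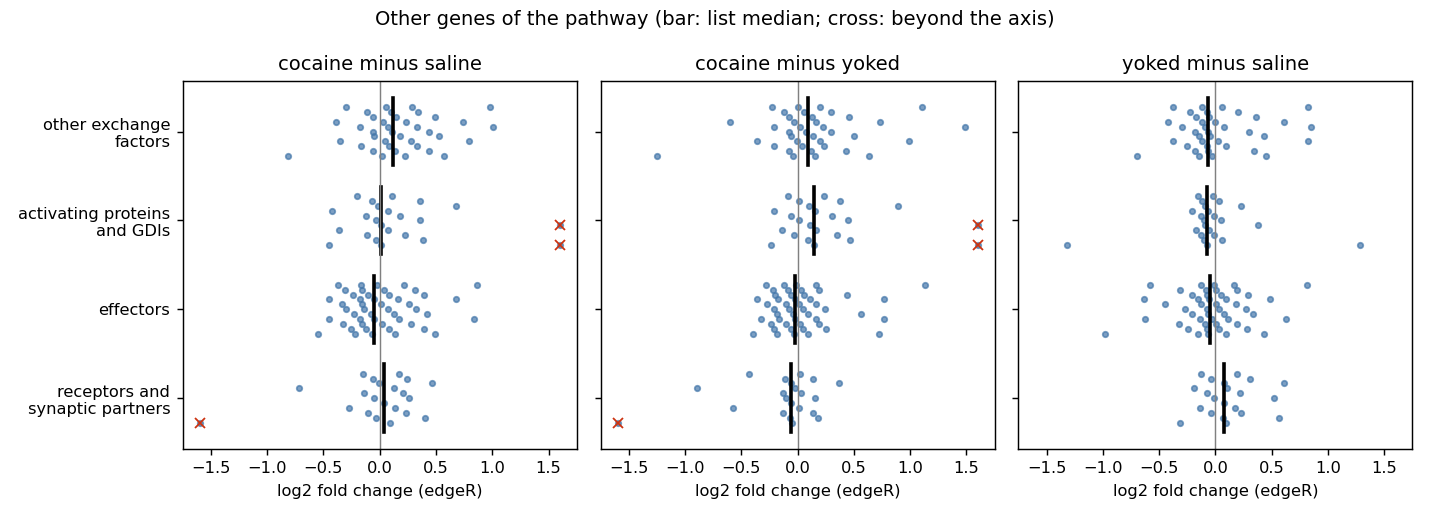
Fitted log2 fold change (horizontal axes, cut at 1.6) of each tested gene in the 4 pathway lists for the 3 comparisons; black bars are list medians, and crosses mark the 3 genes beyond the axis in each comparison with cocaine, all of group means under 2 CPM. List medians lie between −0.073 and 0.15.

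Against the input each pathway list held genes above and genes below it, as the 8 genes did. The median log2 ratio was 0.39 for the 8 genes and −0.20 over all genes. Of the lists, only the activating proteins and GDIs had a positive median. In saline libraries 12 of 41 genes of the exchange factor list, Elmo1 among them, were above the input in each library and 24 below it, with a median log2 ratio of −0.60. Fgd5 was the highest among genes of at least 100 counts on the higher side (2.59 ± 0.41, SD, n = 3, 66 input counts). Swap70, with 197 input counts (4.82 CPM), had at least 1 saline library at 0 and thus no mean log2 ratio, and Dock5 was the lowest of those with a count in each saline library (−3.39 ± 1.99). Among activating proteins and GDIs, with a median of 0.26, Racgap1 was the highest (2.79 ± 0.26). Arhgap15 and Arhgap25, with 319 and 215 input counts (7.80 and 5.26 CPM), each had at least 1 saline library at 0 and averaged 0.14 and 0.135 CPM in saline libraries, and Arhgdib was the lowest of the rest (−3.52 ± 1.66). Genes of the effector list, with a median of −0.24, ran from Cdc42ep5 (3.54 ± 0.49, 16 input counts) to Cdc42ep1 (−3.50 ± 1.604). Of the upstream partners, 17 of 21 were below the input (median −1.27). The receptor phosphatase Ptprs was the highest (2.28 ± 0.49), Ephb3 (116 input counts) had at least 1 saline library at 0, and the NMDA receptor subunit Grin2a was the lowest of the rest (−3.56 ± 0.27).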

How the data were processed

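For each library the authors deposited 1 table of gene symbols with their unnormalised read counts. The submitters' processing notes name STAR 2.0.0e, HTSeq and mouse build mm10. The annotation and strand setting are not given in the sources used here. The 6 rows per table that name no gene stayed out of the totals; reads aligned to several places were 36.3% to 57.1% of all immunopurified reads. Gene positions come from the RefSeq table of GRCm38.p6. Strand is not stated, so reads of overlapping genes, such as Gm10789 within Tiam1 (at most 0.408 CPM), may not be told apart.

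The 9 immunopurified libraries entered 1 edgeR 4.0.16 quasi-likelihood fit in R 4.3.3 (robust, TMM scaling, 6 residual degrees of freedom). Its filter (minimum count 10, minimum total 15) kept 14989 of 22641 genes. Intervals are at 95%, p values were Benjamini-Hochberg adjusted over all genes, and calls are at adjusted p under 0.05. CPM levels use library totals, and spread and correlations use log2(CPM + 1), while ratios add nothing. Ratios to input used genes of at least 20 counts in the input or in the mean saline library. DESeq2 1.42.0, limma 3.58.1 and other settings were alternatives; library totals without scaling factors, overlap of TMM-scaled CPM and the list medians under each setting were added after seeing the data. The edgeR steps and the permutation test (SciPy 1.17.1) were tested on simulated data.

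The 8 genes and the lists were chosen with earlier results of these data known. One further list of pathway genes is not reported here. Named list genes are the 2 with the smallest p per list and tested comparison, up to 2 non-overlapping genes of at least 5 CPM with the largest difference in cocaine against saline, and the highest and lowest input ratio among genes of at least 100 counts, with genes that had a saline library at 0 named apart. Replicate numbers are shared between groups, and the labels do not say what a number marks. Libraries of the same number deviated together in yoked against saline (correlations of 0.30, 0.21 and 0.20 over genes) and in cocaine against yoked (0.25, 0.075 and 0.23). In each of these comparisons 6 of 6 libraries correlated best with their own number, and in cocaine against saline 4 of 6 did. Whether the numbers mark pairs cannot be told from the labels. The printed intervals and p values of all comparisons come from the fit without a replicate block. If the numbers do mark pairs, these values leave that out.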

Additional observations from a re-analysis of the deposited data

How the results depend on the processing

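With all genes and no filter on low counts edgeR called 60 genes in cocaine against saline, 27 in cocaine against yoked and 18 in yoked against saline, where 0 were called with the filter; the cause was not tested. The other settings called 0, as did leaving out each library in turn (0 to 0). With a replicate block, 0 genes were called in each comparison. The block is a paired analysis only if the numbers mark pairs, and it changed no call. For Kalrn it gave log2 fold changes of 0.78, 0.47 and 0.32 in the order of these comparisons. In cocaine against saline, same-numbered libraries correlated at 0.27, 0.073 and 0.053 and 4 of 6 libraries correlated best with their own number; in cocaine against yoked these were 0.25, 0.075 and 0.23, and 6 of 6.

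No tested value of the 8 genes passed the threshold under any of the 14 alternatives. Of 112 values each, 14 changed sign in cocaine against yoked and 6 in yoked against saline. In cocaine against saline, where no value was tested, Tiam1 turned positive in 5 of 14 alternatives (0.021 to 0.13), and Arhgef7, Rac1 and Pak1 turned negative without cocaine library 2 (−0.047, −0.029 and −0.040) or without the replicate 2 libraries (−0.022, −0.050 and −0.0028). They also did so in limma voom (−0.0082, −0.034 and −0.0035). In cocaine against yoked, Tiam1 turned to 0.0040 with the DESeq2 size factor method, 0.0072 without a filter and 0.0037 in DESeq2, and Cdc42 to 0.062 in limma voom. Without the 3 libraries numbered replicate 2, Arhgef7, Rac1 and Cdc42 turned to −0.014, −0.0012 and 0.12. Leaving out each library in turn, or all 3 numbered replicate 2, gave −0.15 to 0.12 for Tiam1, −0.22 to 0.12 for Cdc42 (at most 0.032 with 1 library out), −0.014 to 0.35 for Arhgef7, −0.0012 to 0.30 for Rac1 and −0.21 to 0.18 for Pak3. In yoked against saline, Tiam1 turned to 0.11 in limma voom and 0.17 without the replicate 2 libraries, and leaving out each library gave −0.17 to 0.068 for Tiam1, −0.069 to 0.00071 for Rac1 and −0.22 to 0.021 for Cdc42, which was −0.23 without the replicate 2 libraries. The ratios to input of the 8 genes kept their sign in each of the 40 alternative values.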
